A study of Schizosaccharomyces pombe with 9 samples.

Results

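U6 is a small nuclear RNA of the catalytic core of the spliceosome. In fission yeast (Schizosaccharomyces pombe) it is encoded by snu6, and the region examined was its annotated span on chromosome I, 2562276 to 2562419, minus strand, a length of 144 nt (locus SPSNRNA.06). The members were every position in that span and strand that the authors called in a PAR-CLIP experiment on the protein Clr3: 3 positions in all, of 11250 positions called in any of the 3 libraries. Crosslinked replicate 1 had 2 of them and crosslinked replicate 2 had all 3, while the library made without crosslinking had 0.

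Clr3 is a histone deacetylase of the SHREC silencing complex. There were 2 crosslinked replicates and, as control, 1 library titled as not crosslinked. All 3 came from h+ cells with the alleles ade6-M216, leu1-32 and ura4-delta18, the insertion imr1R(NcoI)::ura4+ and the tagged allele clr3-3HA-TAP::kan MX. Cells were grown at 30 °C with uracil at 10 mg/l, glucose at 4% and 4-thiouracil at 100 µM. A further 900 µM of 4-thiouracil followed for 4 h. The protocol gives 12 J/cm2 of light at 365 nm, IgG beads for 2 h and partial digestion with RNase T1, which cuts RNA after G. The control carries this same protocol text, light included, and only its title and the design text say that it was not crosslinked. Untagged cells were not part of the PAR-CLIP samples, so RNA held by Clr3 cannot be told apart from RNA held by anything else recovered on the beads. The other 6 samples, RNA-seq of 3 wild type and 3 seb1-1 cultures, were not analysed here.

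In PAR-CLIP a crosslinked 4-thiouridine is read as C, so each position carries 2 counts, the converted reads and all reads that cover it. Conversion below means converted reads as a percentage of all reads. Crosslinked replicate 1 had 6560 called nuclear positions with 18539 conversions, crosslinked replicate 2 had 4742 with 10672, and the control had 127 with 885. Only called positions are listed. For the other T positions of snu6, and for all of snu6 in the control, neither depth nor conversion is known.

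RNA polymerase III transcribes the U6 gene, and a ring of Lsm proteins binds the uridine-rich 3′ end of the RNA. U6 enters the spliceosome paired to U4, is unwound from it, and then pairs with U2 and with the 5′ splice site of the pre-mRNA. The conserved ACAGAGA box makes the contact with the 5′ splice site, and the AGC triad just downstream helps to build the active site. The fission yeast gene is unusual in carrying an intron of the mRNA type between these elements.

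The gene is shown in its 3 parts, 5′ to 3′ as RNA-sense DNA from the RefSeq genome, because the called positions are best read against its intron. Capitals mark the 3 called positions.

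exon 1, chrI:2562374-2562419: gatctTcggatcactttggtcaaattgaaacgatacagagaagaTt

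intron, chrI:2562324-2562373: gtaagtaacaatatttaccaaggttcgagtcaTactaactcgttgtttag

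exon 2, chrI:2562276-2562323: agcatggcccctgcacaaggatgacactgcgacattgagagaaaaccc

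Exon 1 is 46 nt, the intron 50 nt and exon 2 48 nt. Counted from the annotated 5′ end, the called positions are nucleotide 6 and nucleotide 45, both in exon 1, and nucleotide 79 in the intron. Exon 1 held 13 T positions, of which 2 were called in each crosslinked library. The intron held 17, of which crosslinked replicate 1 had 0 called and crosslinked replicate 2 had 1. Exon 2 held only 6, of which 0 were called. The control had 0 called among all 36. Of the 626 conversions counted over both crosslinked libraries, 624 were in exon 1 and 2 in the intron.

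**Figure D1:**
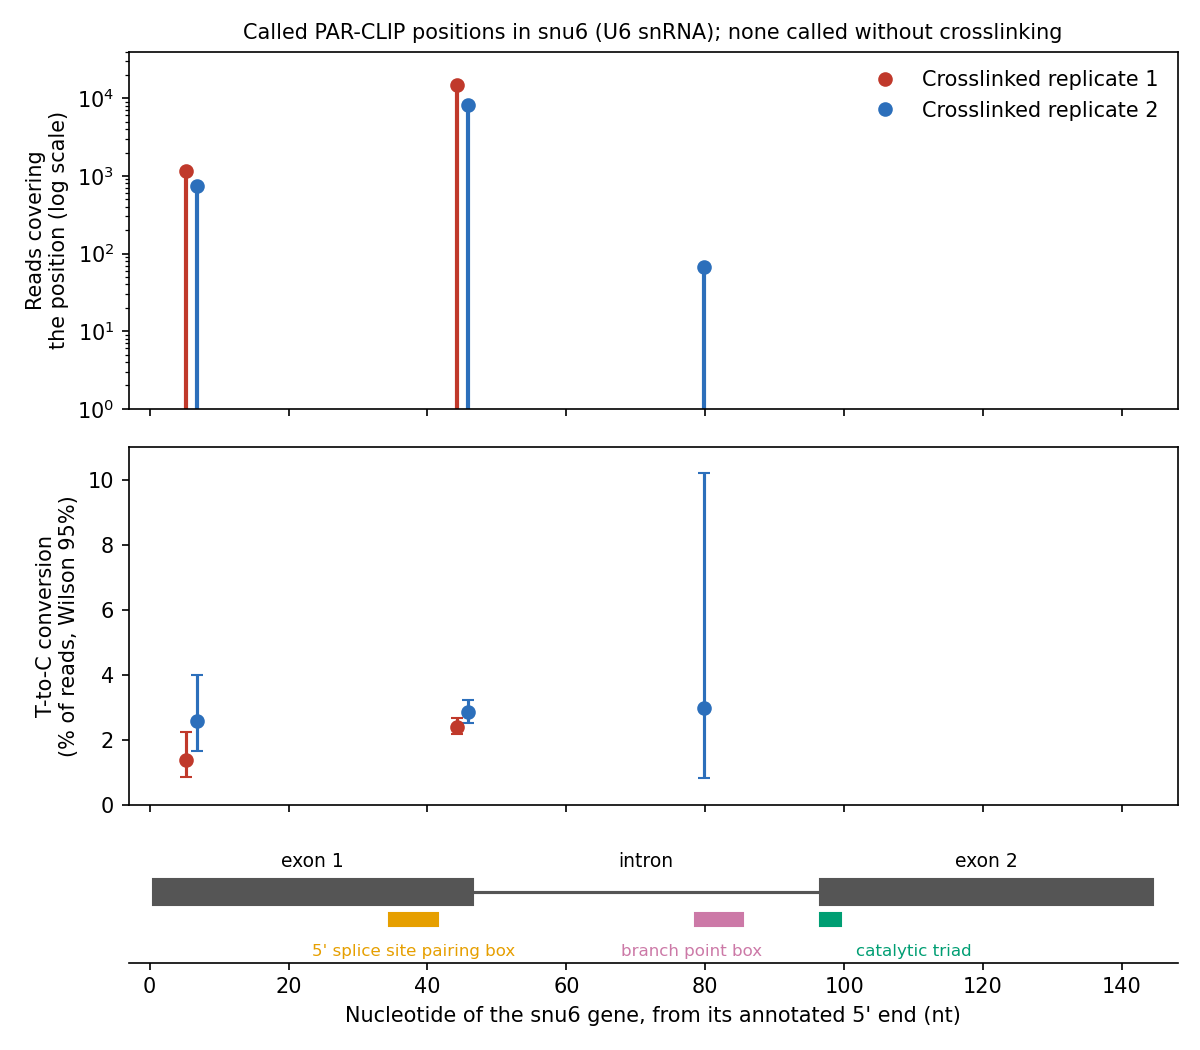
Reads (upper panel, log scale) and T-to-C conversion with Wilson 95% intervals (middle panel, %) at each called position along snu6, with exons as boxes and the intron as a line; replicate points are set slightly apart sideways. Nucleotide 45, at the end of exon 1, had 14837 and 8150 reads, far more than nucleotides 6 and 79, while the conversions of the 3 positions lay between 1.39% and 2.99%.

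Nucleotide 45 (chromosome I, 2562375) was the deepest called nuclear position in each crosslinked library. It was covered by 14837 reads in crosslinked replicate 1, of which 357 were converted, and by 8150 reads in crosslinked replicate 2, of which 232 were converted. The next deepest position, in the 7SL RNA gene srp7, had 8881 and 4880 reads, so nucleotide 45 exceeded it 1.67-fold in each library. By number of conversions nucleotide 45 ranked 2 in each. It was not called in the control.

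Its conversion was 2.41% in crosslinked replicate 1 (Wilson 95% interval 2.17 to 2.67) and 2.85% in crosslinked replicate 2 (2.51 to 3.23), a mean of 2.63% ± 0.311 (SD, n = 2). These are ordinary values. Among nuclear positions with at least 2 conversions, 26.6% of 3161 had a lower conversion in crosslinked replicate 1 and 23.2% of 1653 in crosslinked replicate 2. Calls on few reads have high percentages by construction, since 1 conversion is a large part of a few reads. Among positions with at least 1000 reads, 68.4% of 76 and 68.8% of 32 lay below it, with medians of 1.44% and 1.47%. The control had 1 position with at least 1000 reads, and its conversion was 1.91%. Nucleotide 45 thus stood at the top of the tables by reads and not by conversion.

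**Figure D2:**
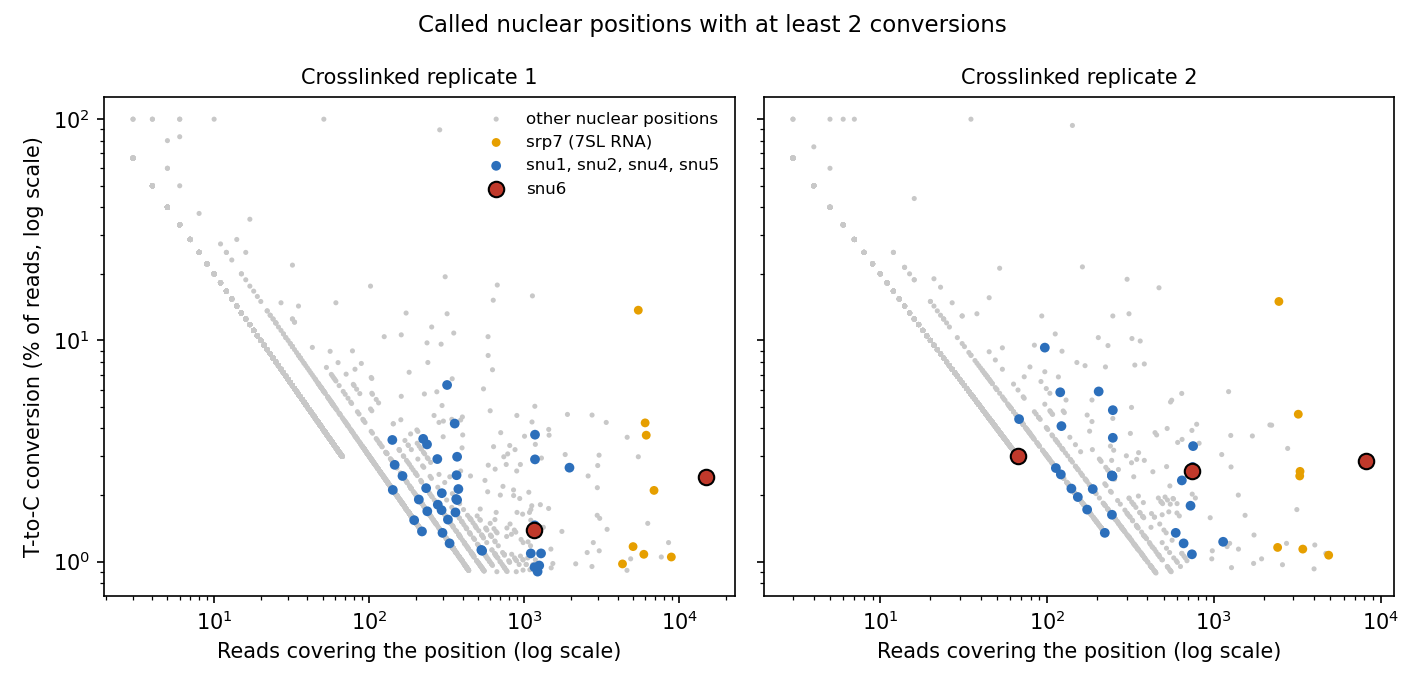
Conversion (%, log scale) against reads (log scale) for called nuclear positions with at least 2 conversions in crosslinked replicate 1 (left) and crosslinked replicate 2 (right), with snu6, the other spliceosomal RNAs and srp7 coloured. The snu6 point farthest right in each panel is nucleotide 45, at 14837 and 8150 reads with conversions of 2.41% and 2.85%.

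In the spliced RNA, nucleotide 45 stands between the 2 conserved elements of U6. It is 4 nt after the last base of the ACAGAGA box, which spans nucleotides 35 to 41, and 2 nt before the AGC triad, which becomes nucleotides 47 to 49 once the intron is removed.

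In the gene, nucleotide 45 is the last base but 1 of exon 1. The neighbouring T, nucleotide 46, is the last base of the exon and was called in 0 libraries. The 30 bases around the end of exon 1 are shown as they stand in the gene, since only an unspliced read matches the genome exactly across this point.

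unspliced, chrI:2562359-2562388: gatacagagaagaTtgtaagtaacaatatt

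Bowtie 1 aligns reads without gaps, so spliced reads with long stretches of exon 2 could not be placed here. Full digestion by RNase T1 would leave nucleotide 45 in the fragment aTtg of the unspliced RNA; the digestion was partial, and read lengths are not in the files used here. Which share of the reads over nucleotide 45 was spliced was not tested.

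Nucleotide 79 (chromosome I, 2562341) is the only called position of the intron. It had 2 conversions in 67 reads in crosslinked replicate 2, a conversion of 2.99% (Wilson 95% interval 0.822 to 10.2), and was called in neither crosslinked replicate 1 nor the control. The call was marginal: its p in the authors' deposited table was 0.00481, against a highest p of 0.00495 for any nuclear call in that library, and no call with 2 conversions had more than 68 reads. Its reads amounted to 0.822% of those on nucleotide 45. It is base 33 of the intron and the first base of the sequence TACTAAC, which spans nucleotides 79 to 85 and ends with CTAAC, a typical fission yeast branch point. RNase T1 would leave it in a fragment of 13 bases.

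RNase T1 fragment around nucleotide 79: tcaTactaactcg

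For comparison, TACTAAC occurs in 646 of 5300 annotated introns. Its first T was called in 2 of these introns in crosslinked replicate 2, and in 0 in crosslinked replicate 1 and the control alike. The other case was in gsk31, named here after its value was seen. Called positions in annotated introns of any gene numbered 144 of 6560 nuclear calls in crosslinked replicate 1 and 106 of 4742 in crosslinked replicate 2. The control had 1 of 127. The share of all intron T positions that was called was not computed, so whether calls at TACTAAC are rare was not tested.

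Nucleotide 6 (chromosome I, 2562414) lies at the opposite end of exon 1. It had 16 conversions in 1149 reads in crosslinked replicate 1, or 1.39% (Wilson 95% interval 0.859 to 2.25), and 19 in 737 reads in crosslinked replicate 2, or 2.58% (1.66 to 3.99). The mean was 1.99% ± 0.838 (SD, n = 2). This SD was larger than at nucleotide 45, but it rests on 16 and 19 conversions, against 357 and 232 there. Whether the spread exceeds counting error was not tested by the SD. Nucleotide 6 was not called in the control. The first 4 bases of the RNA are the reverse complement of bases 9 to 12, and nucleotide 6 falls in the 4 bases between them, the loop of the 5′ hairpin of U6. Complete RNase T1 digestion would cut this loop and leave a fragment of 7 bases.

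RNase T1 fragment around nucleotide 6: atctTcg

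The reads on nucleotide 6 were 7.74% and 9.04% of those on nucleotide 45. It carried 4.29% and 7.51% of the snu6 conversions, against 95.7% and 91.7% at nucleotide 45.

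The authors' deposited occupancy divides the conversions by a whole number. At each of the 276 nuclear positions that the crosslinked libraries shared, they had the same divisor. The divisor is taken here to be the depth of some other library, whose identity the sources used here do not give, and is called the reference depth. At nucleotide 45 this reference depth was 5499, giving occupancies of 0.0649 and 0.0422 and ranks of 604 and 492 among the nuclear positions. At nucleotide 6 the reference depth was 1, the lowest in the tables, giving occupancies of 16 and 19 and ranks of 19 and 4. A reference depth of 1 occurred at 147 nuclear positions in crosslinked replicate 1 (2.24%) and at 105 in crosslinked replicate 2 (2.21%). At nucleotide 79 it was 565, with an occupancy of 0.00354. The occupancy thus put the 2 exon 1 positions in the opposite order to their reads and conversions. In the reference, nucleotide 79 stood at 10.3% of the depth of nucleotide 45, against 0.822% of the reads in crosslinked replicate 2.

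To see whether the crosslinked replicates gave the same conversion, the 276 nuclear positions called in both were compared by the two-sided Fisher exact test on reads, with Benjamini-Hochberg adjustment over all of them. This compares the libraries and not conditions. By the adjusted test 0 of the 276 differed (0%), and both snu6 positions called in each library were among them. By the unadjusted Fisher exact p, 16 were under 0.05. At nucleotide 45 the difference of crosslinked replicate 1 minus replicate 2 was -0.44 percentage points (95% interval -0.89 to -0.0134; exact p = 0.0448, adjusted p = 0.772). At nucleotide 6 it was -1.19 percentage points (-2.7 to 0.0732; exact p = 0.0793, adjusted p = 0.874). Conversion was higher in crosslinked replicate 2 at 202 of the 276 positions, with medians of 2.64% in crosslinked replicate 1 and 3.63% in crosslinked replicate 2, so the direction seen in snu6 was that of most shared positions. These positions had to be called in both libraries, and whether calling at unequal depth shaped this direction was not tested. Reads at nucleotide 45 were 1.82-fold higher in crosslinked replicate 1 and those at nucleotide 6 were 1.56-fold higher, against a median of 2.05-fold over the shared positions.

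As a whole, snu6 held 373 conversions in crosslinked replicate 1, or 2.01% of all nuclear conversions (Wilson 95% interval 1.82 to 2.22). It held 253 in crosslinked replicate 2, or 2.37% (2.1 to 2.68). It ranked 4 of 2933 genes with a site in crosslinked replicate 1 and 3 of 2393 in crosslinked replicate 2. Among genes with 0 positions called in the control it ranked 1 in each crosslinked library. No test across libraries was made, because 2 libraries against 1 cannot give a small exact p.

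The other spliceosomal RNAs are U1, which pairs first with the 5′ splice site; U2, which pairs with the branch point and with U6; U4, the partner from which U6 is unwound; and U5, which holds the exons. Their genes snu1, snu2, snu4 and snu5 together held 390 conversions at 37 positions in crosslinked replicate 1 and 212 at 26 positions in crosslinked replicate 2. Thus snu6 alone, from 2 and 3 positions, held nearly as many as all 4 others in crosslinked replicate 1 and more in crosslinked replicate 2. All 4 also had 0 called positions in the control. The deepest position of any of them had 1957 reads in crosslinked replicate 1 and 1137 in crosslinked replicate 2, and nucleotide 45 of snu6 exceeded these 7.58-fold and 7.17-fold.

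**Figure D3:**
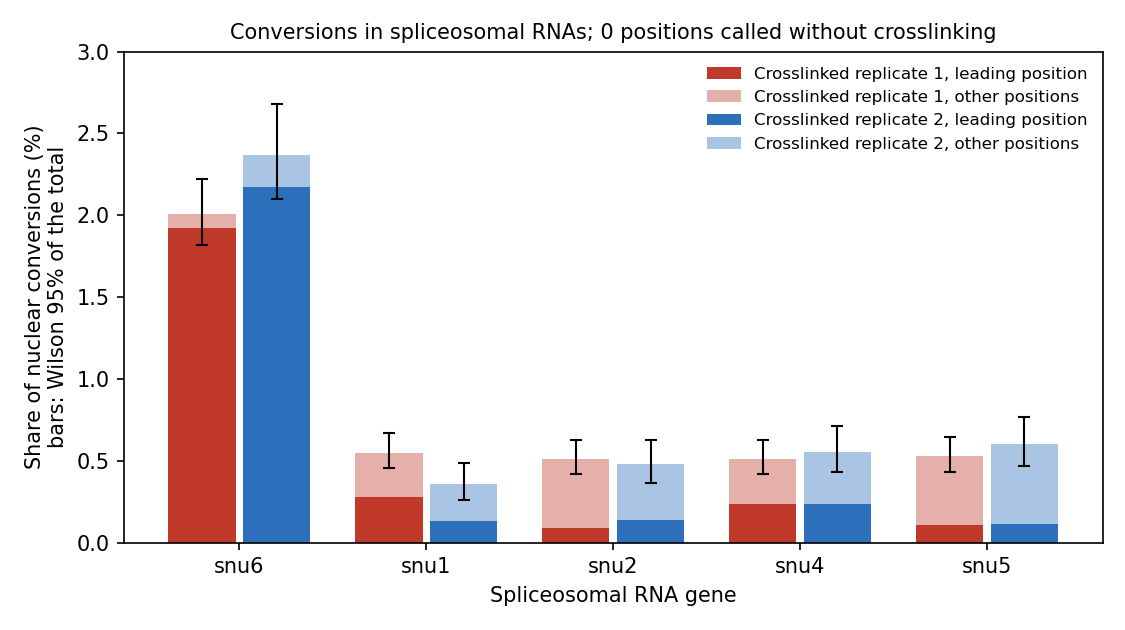
Share of all nuclear conversions (%) held by each spliceosomal RNA gene in the crosslinked libraries, divided into the leading position (dark) and all other positions (light), with Wilson 95% intervals of the total. The snu6 bars reach 2.01% and 2.37% and are almost wholly dark, while snu1, snu2, snu4 and snu5 stay between 0.356% and 0.6%, with the leading position at most 51.0% of a bar.

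Conversion at the leading positions did not separate snu6 from the others. The leading position of snu1 was converted in 2.66% of reads in crosslinked replicate 1 (2.03 to 3.47) and 1.23% in crosslinked replicate 2 (0.735 to 2.06). For snu2 it was 1.46% (0.911 to 2.32) and 2.33% (1.42 to 3.81). The position with most conversions in snu4 was converted in 3.75% (2.81 to 5.0) and, at the adjacent nucleotide in crosslinked replicate 2, in 3.33% (2.26 to 4.87). In snu5 it was 6.29% (4.11 to 9.51) and, at another nucleotide in crosslinked replicate 2, 4.84% (2.79 to 8.27). The value of 2.41% and 2.85% at nucleotide 45 of snu6 lies within this range. The bases around the leading positions, taken over both libraries, are shown to compare their contexts, with the converted T in capitals.

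snu6, chrI:2562365-2562385, minus strand: acagagaagaTtgtaagtaac

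snu1, chrII:3020247-3020267, plus strand: ctcagttattTgtcttggcat

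snu2, chrI:959396-959416, minus strand: ccgacactggTgttcttgcta

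snu4, chrII:467549-467569, minus strand: gatggcgttaTtgctagttga

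snu5, chrII:3236885-3236905, plus strand: ttgcaaaagcTaacgtatctg

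Most conversions of snu6 were on 1 position. Nucleotide 45 held 95.7% and 91.7% of them. In snu1 the leading position held 51.0% and 36.8%, in snu4 46.3% and 42.4%, in snu2 17.9% and 29.4%, and in snu5 20.4% and 18.8%. Among the 31 genes with at least 50 conversions in each crosslinked library, a limit set after the data were seen, snu6 ranked 1 by this share in each, and the medians were 42.4% and 44.2%. It also had the fewest called positions in crosslinked replicate 1, 2 against a median of 6, which makes a high share easier to reach.

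**Figure D4:**
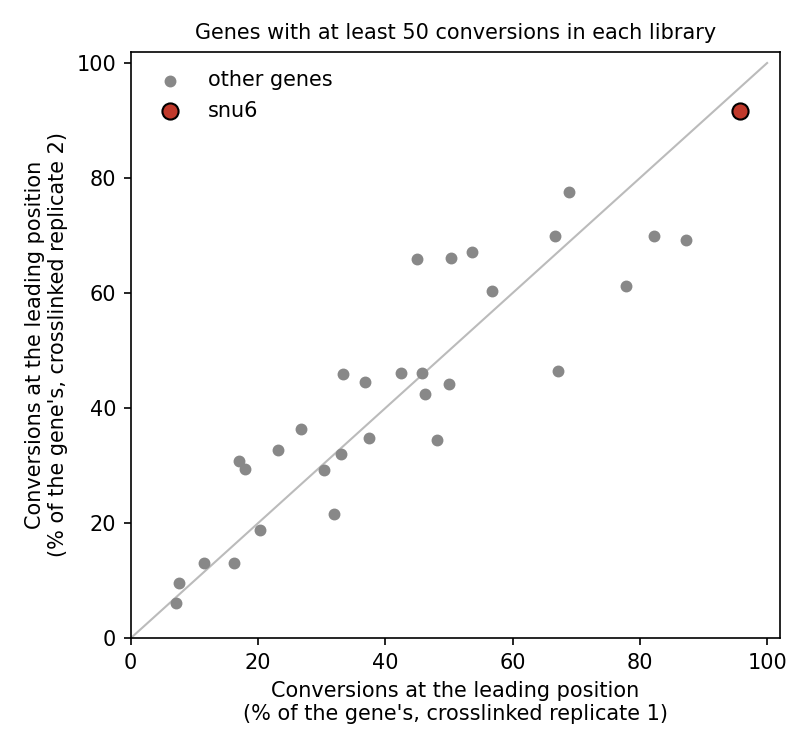
Share of a gene's conversions that fell on its leading position in crosslinked replicate 1 (x axis, %) and crosslinked replicate 2 (y axis, %), 1 point for each of the 31 genes with at least 50 conversions in each library; the line marks equal values. The snu6 point, at 95.7% and 91.7%, lies beyond all others on each axis.

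Called positions within the last 5 bases of an exon that precedes an intron were counted over all genes with annotated introns. They were 23 of 6560 called nuclear positions in crosslinked replicate 1 and 19 of 4742 in crosslinked replicate 2. The control had 0 of 127. The share of all T positions that lies in such places was not computed, so whether such calls are rare was not tested. The calls of the crosslinked libraries there held 549 and 335 conversions, of which nucleotide 45 of snu6 contributed 357 and 232. The next was in the tRNA-Met gene SPBTRNAMET.05, also named after its value was seen, with 80 and 48. That gene had 1 site with 9 conversions in the control, outside these last 5 bases.

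Among genes with 0 positions called in the control, those nearest to snu6 by their shares of conversions in the crosslinked libraries were the tRNA-Phe gene SPBTRNAPHE.03, with 1.11% and 1.1%, the tRNA-Pro gene SPATRNAPRO.01, with 0.825% and 0.871%, and the RNase P RNA rrk1, with 0.755% and 0.909%. Likeness was the distance of the log2 shares over the 2 libraries, among 1577 genes with a site in both. The nearest was at a distance of 1.41, the share of snu6 being 1.82-fold and 2.16-fold that of SPBTRNAPHE.03. Genes with control sites were nearer, a comparison added after the data were seen: of 1652 genes with a site in both crosslinked libraries, the tRNA-Gly gene SPBTRNAGLY.09 was nearest, with 2.06% and 2.1% at a distance of 0.179, and it had 2 sites with 18 conversions in the control. The tRNA-Arg gene SPBTRNAARG.05 followed with 1.86% and 1.62%, and had 1 site with 63 conversions in the control. The tRNA values are uncertain, because near-identical gene copies can share reads. In snu6, 0 of its 120 windows of 25 nt, and 0 of its 125 windows of 20 nt, had another exact copy in the reference genome.

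Calls around the gene were counted too, without a genome-wide rate to set beside them. The annotated gene ends before the T run that terminates transcription, so the region just downstream is shown, because U6 RNA carries a uridine tail there.

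after the annotated 3′ end, chrI:2562251-2562275, minus strand: atttttttttctaaacaaaattaat

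These 25 bases hold 13 T positions, 9 of them in 1 run, and 0 were called in any library. Within 3000 nt on either side and on both strands, crosslinked replicate 1 had 2 called positions outside snu6 and crosslinked replicate 2 had 3, each of 1 conversion in 3 reads. The control had 0. The nearest was 684 nt away, in vrs2 downstream.

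The proteins that make, modify and carry U6 were followed through their own mRNAs. The list of 32 symbols matched 30 genes for the Lsm ring, for U6 biogenesis and annealing, for the complex of U4, U5 and U6, and for contacts of U6 in the active spliceosome. Of these, 5 had a site in both crosslinked libraries (16.7%), against 29.8% of all 5123 protein-coding genes, and 0 had a site in the control. In single libraries the order was not the same in both: 40.0% of the list against 52.2% of all protein-coding genes had a site in crosslinked replicate 1, and 46.7% against 43.4% in crosslinked replicate 2. The 5 genes with a site in both crosslinked libraries included brr2, the helicase that unwinds U4 from U6, with 5 conversions in each. Next were prp1, a protein of the U4, U5 and U6 complex, with 3 and 2, and rna4, a U4 and U6 protein, with 1 and 2. The last were the splicing factor prp5 with 2 and 1, and prp24, the factor that anneals U6 to U4, with 1 and 1. No Lsm gene was among these 5, nor was mtl16, which encodes the enzyme that methylates the ACAGAGA box. Also absent from the 5 were sla1, the La protein that binds new polymerase III transcripts, and mpn1, the exonuclease that trims the U6 tail. Counts this low say little about single genes, and gene length and RNA level were not matched. With at least 2 conversions asked of a position, 0 of the 30 genes remained, against 8.0% of all protein-coding genes.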

How the data were processed

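PAR-CLIP was made from fission yeast with TAP-tagged Clr3, as 2 crosslinked libraries and 1 library without crosslinking, grouped by sample title. Reads were aligned to build ASM294v2, with Bowtie 1.1.1 and SAMtools named per the submitters' processing notes. The sources used here do not say how sites were called or what was done with multiply matching reads. The authors' deposited counts are reads with a conversion and reads covering each called position; this reading of single-letter column names rests on the values. The authors' deposited p-value belongs to each call. The authors' deposited occupancy is a ratio of conversions to a reference depth. Library depth is unknown, since the tables list called positions alone, each with 3 reads or more. The highest nuclear p was 0.00499, 0.00495 and 0.00497, and the lowest conversion of any nuclear call 0.901%, 0.889% and 1.16%, in crosslinked replicate 1, crosslinked replicate 2 and the control.

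Positions were placed on the RefSeq assembly ASM294v3 and its annotation, where all 6560, 4742 and 127 nuclear positions lay at a T of the given strand; mitochondrial and unplaced positions were left out. A position went to 1 sense gene, structural RNAs before mRNAs. Python 3.11.15, pandas 2.3.3 and SciPy 1.17.1 were used. Intervals are Wilson intervals at 95%, with Newcombe intervals for differences; without molecular identifiers these reflect counting error alone. Nothing in the labels ties the replicates to separate cultures, and the SD of 2 values may be technical. The Fisher exact test with Benjamini-Hochberg adjustment over all shared positions was tested on simulated data, with a threshold of 0.05.

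The gene, the partner list and the comparisons were chosen with earlier results of these data known. Named beside snu6 were the other spliceosomal RNAs, the 3 genes nearest in share of conversions, and partner genes with a site in both crosslinked libraries. Alternatives were minimum conversions, reads and p, other denominators, exons only, Holm adjustment, and leaving out each replicate.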

Additional observations from a re-analysis of the deposited data

How the results depend on the processing

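The mean share of nuclear conversions held by snu6, 2.19% with an SD of 0.254, was 2.9% over positions with at least 2 conversions, 3.18% over positions with at least 20 reads, 4.23% over calls with a p of at most 0.001 in the authors' deposited table, and 2.79% with rRNA and tRNA genes out of the total. Each of these shrinks the total and keeps nucleotide 45. With a single replicate the share was 2.01% to 2.37%. The count of partner genes with a site in both crosslinked libraries, 5, was 0 with at least 2 conversions (8.0% of all protein-coding genes) and 0 with at least 20 reads (5.78% of all). It was 12 to 14 with a site asked of a single replicate only, a weaker demand: 12 of 30 in crosslinked replicate 1 (40.0%, against 52.2% of all) and 14 of 30 in crosslinked replicate 2 (46.7%, against 43.4%). Of 24 alternatives tried, 16 kept their result and 0 reversed one; the number of called positions, the conversion at nucleotide 45 and the count of 0 positions that differed between replicates were among those kept. Under the p of at most 0.001, nucleotide 79 drops out. Positions below about 0.9% conversion are not listed at any depth, and the control's depth over snu6 is unknown, which limits any statement about what was not called. No paired analysis was possible because the control is a single library whose label gives no replicate number, and the other groups that share numbers are RNA-seq samples that were not analysed here.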
